A study of Saccharomyces cerevisiae with 10 samples.

Results

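The 32 genes described here encode 31 subunits of the yeast proteasome and Rpn4, the transcription factor that drives their expression. They are a list of PRE, PUP, SCL1, RPT and RPN genes taken by identity and not by their values, without the subunit genes RPN13 and SEM1, and they are 32 of the 6816 rows of each table that name 1 gene. By place in the complex, 7 belong to the alpha ring of the core particle, 7 to its beta ring, 9 to the base of the regulatory particle and 8 to its lid, and RPN4 is the regulator. The 32 genes lie on 12 chromosomes, their loci span 597 to 2982 bp, and none overlaps another row of the tables.

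The proteasome degrades proteins marked with ubiquitin. The base unfolds a substrate with its ATPases and threads it into the core, where catalytic sites of the beta ring cut it, while the lid holds the enzyme that removes ubiquitin. In budding yeast Rpn4 binds a short element in the promoters of proteasome genes and is itself a short-lived substrate of the proteasome, so that the level of the complex feeds back on its own synthesis.

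Polyadenylated RNA was sequenced from 10 cultures of Saccharomyces cerevisiae in the S288C background, all spores of diploids heterozygous for a deletion of an RSC gene. RSC is a chromatin remodeller that cells cannot do without, and it contains the products of the 5 genes deleted here. Experiment 1 compared the single deletions htl1Δ, npl6Δ, rsc1Δ, rsc2Δ and rtt102Δ with 1 wild-type (WT) library, all in log phase in YPD, a rich glucose medium, with 10 generations in the titles. Experiment 2 compared WT and htl1Δ strains that both carried GALpr-HTL1, HTL1 under a galactose promoter, after growth in YPGR (taken here as galactose and raffinose medium) and then either in YPGR or for 10 generations in YPD. Each group had 1 library, so no difference has a replicate check, no test was made, and every value compares 2 libraries. Each library came from a whole culture, so fewer cells with a transcript and less transcript per cell cannot be told apart.

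The libraries were checked before the members were read. Each deleted gene was near 0 in its own library of experiment 1, for example HTL1 at 2.09 FPKM (a fragment count scaled to gene length and sequencing depth) against 293 in WT. In experiment 2 HTL1 was still found in both libraries labelled htl1Δ, with 232 FPKM in YPD against 555 in WT and 2782 FPKM in YPGR against 2973 in WT. Mating type differed between libraries. The 6 markers of a cells summed to 28105.4 to 72933.4 FPKM in htl1Δ, rsc1Δ, rsc2Δ and rtt102Δ and in the htl1Δ GALpr-HTL1 culture grown in YPD, and to 59.2 to 234.8 FPKM in the other 5 libraries, where MFA2 was listed at 0 in 1 (WT of experiment 2 in YPD) and no other marker was at 0 in any library. The 4 markers of alpha cells summed to 59.1 to 123.6 FPKM in the first 5 libraries and to 2159.2 to 11384.2 FPKM in the other 5. WT of experiment 1 and npl6Δ were thus both of the alpha kind, as were both YPGR libraries. The libraries labelled htl1Δ with GALpr-HTL1 were of opposite mating type, alpha in YPGR and a in YPD. The steps between low FPKM values put the depth at about 9090000 to 12050000 fragments a library, which gives 1110 to 5830 fragments for each of the 32 genes; these depths are estimates.

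The element that Rpn4 binds was looked up first, though the genes were not chosen by it. The motif GGTGGCAAA, on either strand, was found in the window from 250 bases before to 50 bases after the start codon in 27 of the 31 subunit genes (87.1%) and in 72 of 6002 protein-coding genes of the genome (1.20%). With the first base left free (NGTGGCAAA, which includes every match of the first motif) it was found in 30 of 31 subunit genes (96.8%) and in 143 of all genes (2.38%). The exact motif was in 6 of 7 alpha-ring genes, 6 of 7 beta-ring genes, 8 of 9 base genes and 7 of 8 lid genes. Each of the 27 genes had a single match, 84 bases (RPT6) to 183 bases (PUP3) before the start codon with a median of 120, counted at the match's far end. The match read in the same direction as the gene in 19 and in the opposite direction in 8. These letters were not in the window of RPN4 itself, nor in that of RPN10, in either form.

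The stretches below hold the match, in capitals, with 10 bases on each side, on the strand on which the motif reads (sacCer3 coordinates, sequence from the RefSeq R64 assembly). The first 7 are subunit genes whose values stand at an end of the range in the comparisons that follow; the last 3 are the genes that hold the motif with A as its first base.
RPT6 (YGL048C), chrVII:411352-411380, minus strand: atgcgagcgaGGTGGCAAAagttgtaata
RPN7 (YPR108W), chrXVI:742290-742318, minus strand: atcctcaatgGGTGGCAAActtaacttat
PRE7 (YBL041W), chrII:141150-141178, plus strand: aaactcaaagGGTGGCAAAaacaagcggt
PUP2 (YGR253C), chrVII:999226-999254, minus strand: aaccaagaccGGTGGCAAAagagtaacct
PRE1 (YER012W), chrV:177683-177711, plus strand: aaatctttacGGTGGCAAAaaataaagaa
RPN3 (YER021W), chrV:196843-196871, minus strand: ctctttcttgGGTGGCAAAtgtttttcgt
PRE3 (YJL001W), chrX:435035-435063, plus strand: aacggaatccGGTGGCAAAaaagggaaaa
PUP1 (YOR157C), chrXV:631891-631919, minus strand: aacccggccgAGTGGCAAAataccaaaaa
PRE5 (YMR314W), chrXIII:901552-901580, plus strand: cctattatagAGTGGCAAAattaaaaatt
RPN8 (YOR261C), chrXV:817085-817113, minus strand: gggatacctcAGTGGCAAAtcgttactca
RPN7 and RPN3 read the motif against the direction of the gene, and the other 8 read it along the gene.

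**Figure D1:**
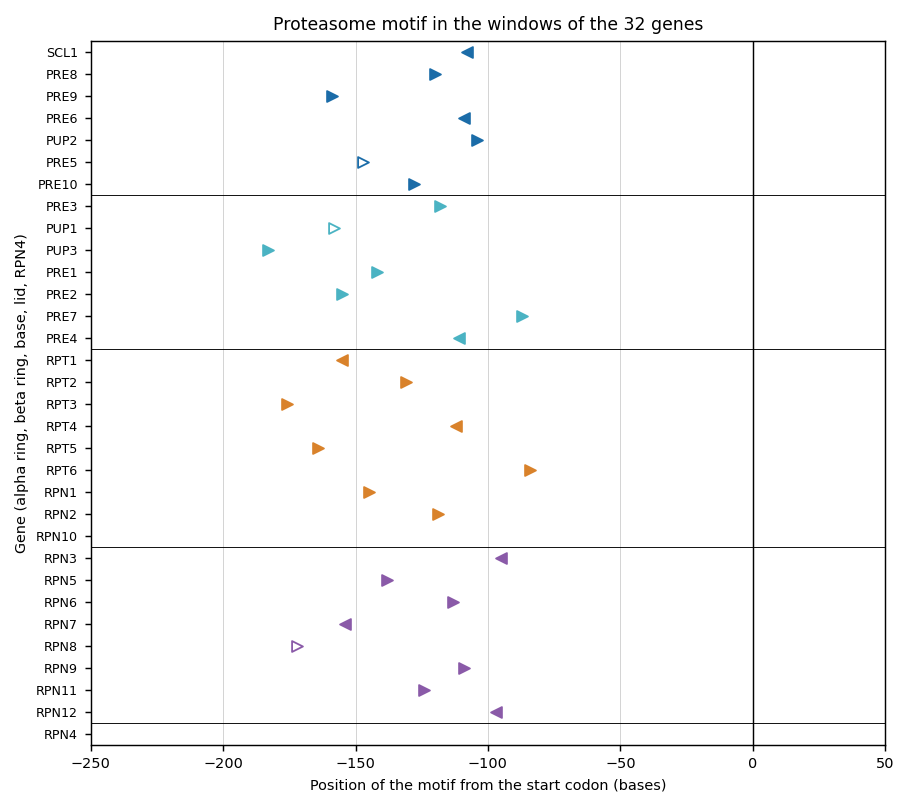
Position of the proteasome motif in bases from the start codon (x axis) for each of the 32 genes (y axis, ordered by subcomplex). Filled triangles are GGTGGCAAA and open ones NGTGGCAAA only, and they point right where the motif reads along the gene; the filled matches lie 84 to 183 bases before the start codon, and RPN10 and RPN4 have none.

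In WT the subunit genes were expressed at like levels. In the WT library of experiment 1 the 31 subunit genes ran from 157 FPKM (RPN1) to 510 FPKM (PRE1), with a median of 296, a 3.26-fold range and a coefficient of variation of 30.0%. That median lay at percentile 86.4 of all genes with at least 5 FPKM in that library. RPN4 stood lower, at 103 FPKM and percentile 67.2. Over all 10 libraries, on 1 scale within each experiment, the median subunit gene lay between 238 and 299 FPKM. The ratio of the highest to the lowest subunit was 2.91 to 3.80.

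The levels differed by subcomplex. In WT of experiment 1 the median was 368 FPKM for the alpha ring, 360 for the beta ring, 264 for the base and 234 for the lid. RPN1 and RPN2, the large scaffold subunits of the base, and RPN7, a structural subunit of the lid, took the lowest place between them in every library. PRE1 and PRE7 of the beta ring and PRE9 and SCL1 of the alpha ring took the highest. The level ran against locus length over the 31 genes within each library, with Spearman's rho from -0.69 to -0.81, a description of genes that share a library; FPKM is already per length, and the part of length in this order was not tested.

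**Figure D2:**
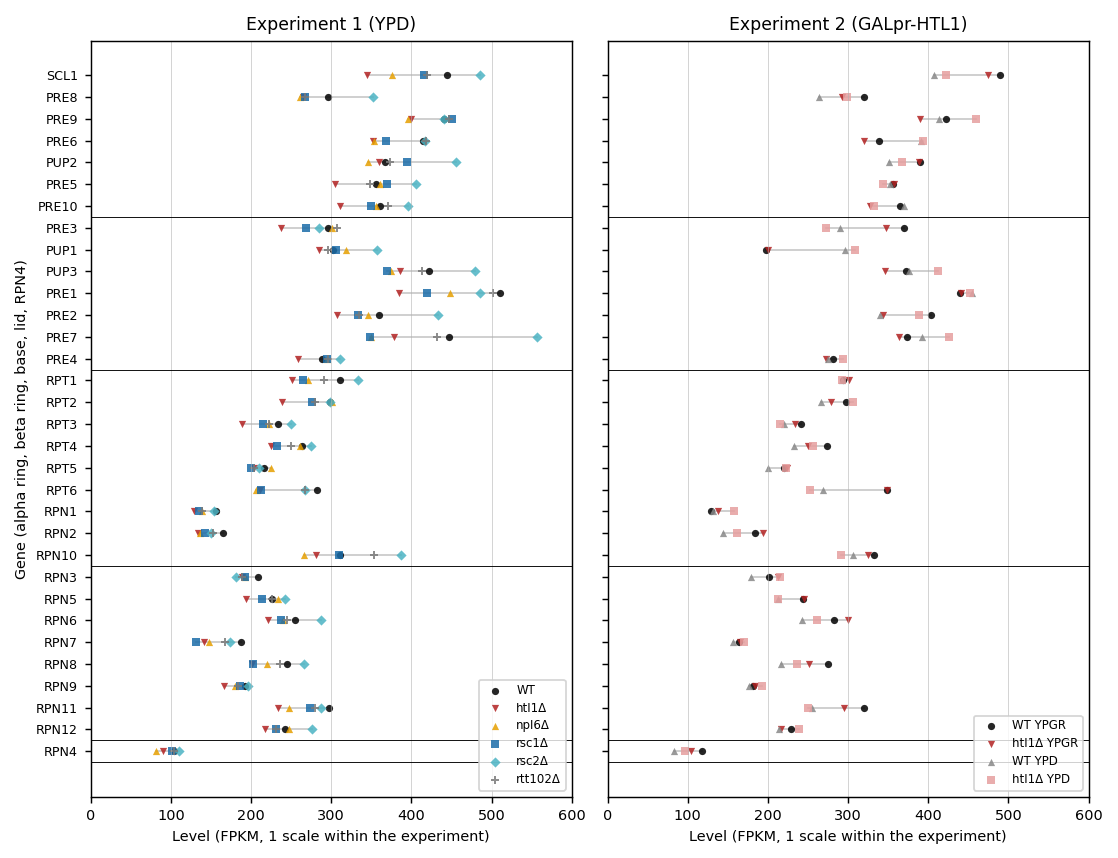
Level in FPKM (x axis, from 0) of each of the 32 genes (y axis, by subcomplex) in the 6 libraries of experiment 1 (left) and the 4 of experiment 2 (right), 1 point a library, tables brought to 1 scale within an experiment through shared columns. The points of a gene lie close together: in experiment 1 its highest library was 1.12 (RPT5) to 1.60 (PRE7) times its lowest.

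Within experiment 1 the spread of a single subunit gene over the 6 libraries was small. On 1 scale, which is approximate because the tables were scaled separately, the highest library exceeded the lowest by a median of 1.29-fold over the 31 genes. The lowest library was htl1Δ for 21 of the 31 genes, against 20.7% of the 990 other genes in their FPKM range. The highest was rsc2Δ for 19, against 27.9% of those genes, both by the authors' scaling, under which genes in that range had a median log2 ratio of 0.13 in rsc2Δ. PRE7 had the widest range, with 447 FPKM in WT, 378 in htl1Δ, 349 in npl6Δ, 348 in rsc1Δ, 557 in rsc2Δ and 432 in rtt102Δ. RPT5, an ATPase of the base, had the narrowest, with 216, 203, 225, 200, 210 and 204 FPKM in the same order.

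Ratios were then taken within each table as log2((FPKM + 1)/(FPKM + 1)), deletion over WT, and all 31 subunit genes and RPN4 were measured in all 9 comparisons. Of the 279 subunit values, 236 lay within 0.25 of 0, and 3 reached an absolute log2 ratio of 0.5 (1.41-fold), 1 in rsc1Δ and 1 in each comparison of media. The whole range was -0.50 to 0.59. Of all measured genes 14.9% reached 0.5 in rsc1Δ, 54.1% between media in WT and 56.0% between media in htl1Δ. The shares were 23.7%, 29.1%, 24.4% and 7.25% in htl1Δ, npl6Δ, rsc2Δ and rtt102Δ, and 18.2% and 5.20% in htl1Δ of experiment 2 in YPD and YPGR, where no subunit gene reached it. The authors' deposited table called none of the 32 genes significant in any comparison, and its smallest p-value for a member was 0.170 (RPN7 in rsc1Δ), and its smallest q-value for a member was 0.998. It called 0.529% of all measured genes significant in htl1Δ, 0.446% in npl6Δ, 0.515% in rsc1Δ, 0.447% in rsc2Δ and 0.501% in rtt102Δ. In experiment 2 these shares were 0.691% for htl1Δ in YPD, 0% in YPGR, 0.115% between media in WT and 0.229% between media in htl1Δ.

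**Figure D3:**
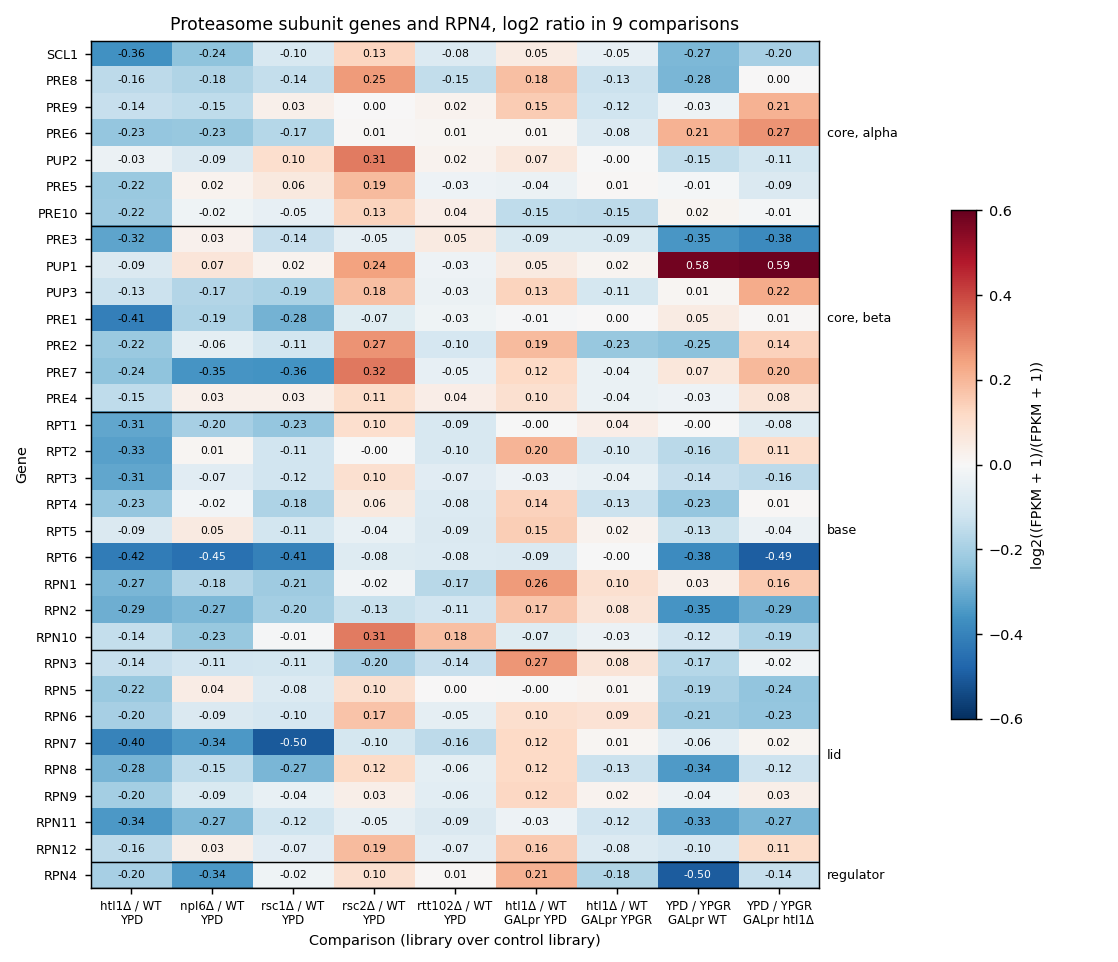
Log2 ratio (colour and printed value) of the 32 genes (rows, by subcomplex) in the 9 comparisons (columns), each the first library over the second. The htl1Δ column of experiment 1 is below 0 for all 31 subunit genes, and the values at or past 0.5 are RPN7 in rsc1Δ and PUP1 in both comparisons of media.

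In htl1Δ of experiment 1 every subunit gene was lower than in WT, by little. The median of the 31 log2 ratios was -0.22, a level 14.4% lower, with an SD over the genes of 0.0994. All 31 were below 0, against 50.0% of the 6044 measured genes, and 0 were at -0.5 or less, against 10.7%. The 968 genes with a mean FPKM inside the members' range had a median of 0.04, and their middle 50% spanned 0.47, against 0.15 for the subunit genes.

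The htl1Δ difference was found in all 4 subcomplexes, with medians of -0.22 in the alpha ring, -0.22 in the beta ring, -0.29 in the base and -0.21 in the lid. The lowest ratios were those of RPT6, an ATPase of the base, at 211 FPKM against 282 (-0.42), PRE1 at 384 against 510 (-0.41) and RPN7 at 141 against 187 (-0.40). At the other end PUP2 of the alpha ring stood at 359 against 368 FPKM (-0.03), PUP1, the trypsin-like catalytic subunit, at 285 against 302 (-0.09) and RPT5 at 203 against 216 (-0.09). RPN4 stood at 89.8 FPKM against 103 (-0.20), close to the median of its targets. The htl1Δ library was of the a kind and WT of the alpha kind. Against the rtt102Δ library, also of the a kind, the median of the subunit genes in htl1Δ was -0.19.

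In npl6Δ the median was -0.11, with 23 of 31 subunit genes below 0 against 49.5% of the 6051 measured genes, and 0 at -0.5 or less against 14.0%. RPT6 was again lowest, at 204 FPKM against 279 (-0.45), followed by PRE7 at 346 against 442 (-0.35) and RPN7 at 146 against 185 (-0.34). PUP1 stood highest at 315 against 299 (0.07), followed by RPT5 at 222 against 214 (0.05) and RPN5 of the lid at 231 against 224 (0.04). The 964 genes in the members' range had a median of 0.11 here, so set against genes of like level the subunit median was -0.22. RPN4 stood at 80.3 FPKM against 102 (-0.34), below 29 of the 31 subunit genes. The npl6Δ library had the mating type of WT.

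In rsc1Δ the median was -0.11 as well, with 26 of 31 subunit genes below 0 against 49.5% of the 6019 measured genes. The one subunit at -0.5 or less, against 7.69% of all measured genes, was RPN7 at 128 FPKM against 182 (-0.50). RPT6 at 207 against 275 (-0.41) and PRE7 at 339 against 435 (-0.36) came next. PUP2 at 384 against 358 (0.10), PRE5 at 360 against 347 (0.06) and PRE9 at 438 against 429 (0.03), all of the alpha ring, were highest. All 9 base genes and all 8 lid genes were below 0, against 4 of 7 in the alpha ring and 5 of 7 in the beta ring. The medians were -0.18 in the base, -0.11 in the lid, -0.05 in the alpha ring and -0.14 in the beta ring. RPN4 was at 98.9 FPKM against 101 (-0.02). Set against the 960 genes in the members' range, the subunit median was -0.17. Against the rtt102Δ library, of the same mating type, the rsc1Δ median was -0.05.

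In rsc2Δ the median had the other sign. It was 0.10, with 21 of 31 subunit genes above 0 against 50.1% of the 6047 measured genes, and 0 at 0.5 or more against 12.5%. Below 0 were 10 of the 31, against 37.0% of the 921 genes in the members' range. The highest were PRE7 at 530 FPKM against 425 (0.32), RPN10, a ubiquitin receptor of the base, at 369 against 296 (0.31) and PUP2 at 434 against 350 (0.31). The lowest were RPN3 of the lid at 172 against 198 (-0.20), RPN2 at 143 against 157 (-0.13) and RPN7 at 166 against 178 (-0.10). The sign rests on the scaling, because the 921 genes in the members' range had a median of 0.13 and the subunit median set against them was -0.030. RPN4 stood at 105 FPKM against 98.3 (0.10), and at -0.031 on that scaling. Against the rtt102Δ library the rsc2Δ median was 0.13.

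The rsc2Δ ratios ran with locus length. Over the 31 subunit genes the Spearman correlation of ratio with length was -0.46, and over the 921 genes in the members' range it was -0.29; the alpha and beta rings, made of short genes, had medians of 0.13 and 0.18, and the base and lid -0.0016 and 0.07. Length was thus not told apart from subcomplex. Centred on genes of similar length, the median of the 31 genes was 0.08.

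By the authors' scaling, the subunit genes differed least from WT in rtt102Δ among the deletions of experiment 1. The median was -0.06 with an SD of 0.0723 over the genes, and 23 of 31 were below 0 against 49.1% of the 5988 measured genes. Set against the 959 genes in the members' range, the median was -0.11, and by that measure rsc2Δ differed less, with -0.030. RPN10 was highest at 342 FPKM against 302 (0.18), then PRE3, the caspase-like catalytic subunit, at 298 against 287 (0.05) and PRE4 of the beta ring at 287 against 279 (0.04). RPN1 at 135 against 152 (-0.17), RPN7 at 163 against 181 (-0.16) and PRE8 of the alpha ring at 259 against 286 (-0.15) were lowest. RPN4 was at 104 FPKM against 103 on the scale of experiment 1 (0.01). The correlation with length was -0.54 over the 31 genes and -0.11 over the 959 genes in their range.

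The 5 comparisons of experiment 1 share the WT library, so their values are given side by side and not as support for each other. RPN7 was among the 3 lowest subunit genes in all 5 of them, with -0.40, -0.34, -0.50, -0.10 and -0.16 in htl1Δ, npl6Δ, rsc1Δ, rsc2Δ and rtt102Δ. RPT6 had -0.42, -0.45, -0.41, -0.08 and -0.08 in the same order. In WT, htl1Δ, npl6Δ, rsc1Δ, rsc2Δ and rtt102Δ on 1 scale, RPN7 stood at 187, 141, 147, 132, 174 and 168 FPKM, and RPT6 at 282, 211, 206, 213, 267 and 267 FPKM. For both genes htl1Δ, npl6Δ and rsc1Δ lay below the other 3 libraries. Both genes were picked for their low ratios in these comparisons, so this order follows in part from the choice.

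**Figure D4:**
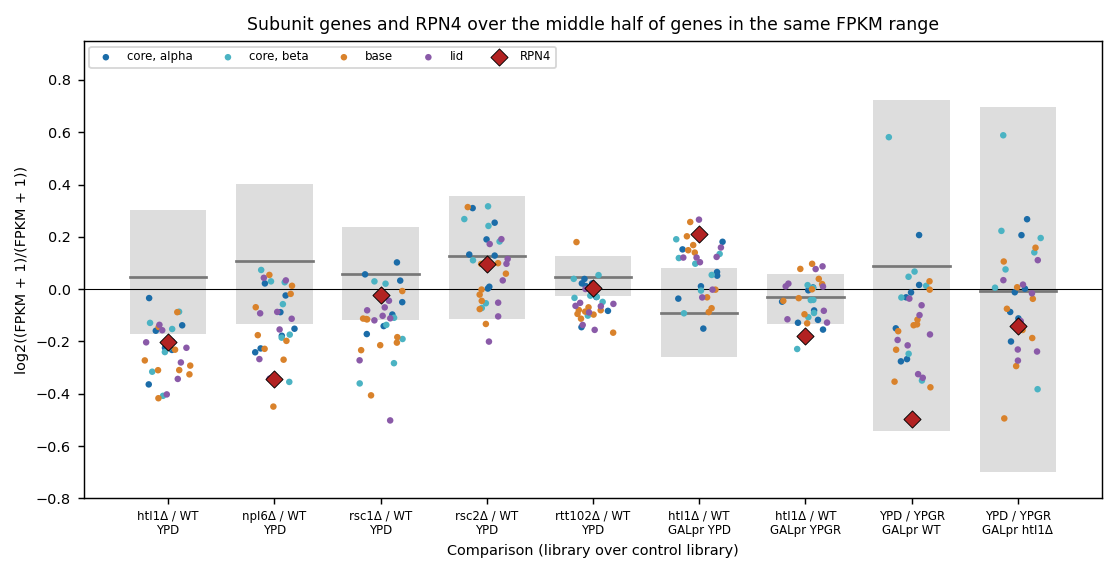
Log2 ratio (y axis) of the subunit genes (points, coloured by subcomplex) and RPN4 (diamonds) in each of the 9 comparisons (x axis), over a grey box from the lower to the upper quartile of all genes in the same FPKM range, with their median as a line. In every comparison the middle 50% of the subunit ratios spans less than the box, and in htl1Δ of experiment 1 all points lie below the line at 0.04.

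Experiment 2 compared libraries labelled WT and htl1Δ, both with GALpr-HTL1. In YPD the median of htl1Δ over WT was 0.10, with 21 of 31 subunit genes above 0 against 48.9% of the 6081 measured genes, and 0 at 0.5 or more against 10.6%. RPN3 at 208 FPKM against 173 (0.27), RPN1 at 153 against 128 (0.26) and RPT2, an ATPase of the base, at 298 against 259 (0.20) were highest. PRE10 of the alpha ring at 323 against 358 (-0.15), PRE3 at 264 against 281 (-0.09) and RPT6 at 245 against 260 (-0.09) were lowest. RPN4 stood at 93.2 FPKM against 80.4 (0.21). The 989 genes in the members' range had a median of -0.09, and the subunit median set against them was 0.19. HTL1 in this library was at 41.9% of its WT with the pseudocount of 1 FPKM, and the library was of the a kind with WT of the alpha kind. The part of either in the values was not tested.

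In YPGR, where HTL1 stood at 2782 and 2973 FPKM and both libraries were of the alpha kind, the subunit genes of the 2 libraries lay close together. The median was -0.04 (0.0089 when centred on genes of similar length), with 19 of 31 below 0 against 50.7% of the 6061 measured genes, and 0 at -0.5 or less against 3.12%. Of the 1048 genes in the members' range, 58.6% were below 0. PRE2, the chymotrypsin-like catalytic subunit, was lowest at 363 FPKM against 426 (-0.23), followed by PRE10 at 346 against 386 (-0.15) and RPT4 at 264 against 289 (-0.13). RPN1 at 146 against 136 (0.10), RPN6 of the lid at 317 against 298 (0.09) and RPN2 at 205 against 194 (0.08) were highest. RPN4 stood at 110 FPKM against 124 (-0.18). Ratios ran with length, with a Spearman correlation of 0.43 over the 31 genes and 0.36 over the 1048 genes in their range.

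Between media most genes differed more than the subunit genes did. In WT, YPD over YPGR, 28.4% of the 6080 measured genes were at 0.5 or more and 25.6% at -0.5 or less, against 1 and 0 of the 31 subunit genes. Their median was -0.13, with 24 of 31 below 0 against 49.3% of all genes, and -0.22 when set against genes of like level, whose median was 0.09. The middle 50% of the subunit ratios spanned 0.23, against 1.27 for the 1155 genes in their range. In htl1Δ, 28.7% and 27.2% of the 6126 measured genes were at 0.5 or more and at -0.5 or less, against 1 and 0 subunit genes. The median there was -0.01, with 16 of 31 below 0 against 50.3%, and the spans were 0.28 and 1.40. Both WT libraries were of the alpha kind. The libraries labelled htl1Δ differed in mating type as well as medium, alpha in YPGR and a in YPD. In that pair medium and mating type cannot be told apart.

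PUP1 was the exception in both comparisons of media. It stood at 198 FPKM in YPGR and 297 in YPD in WT (0.58), and at 207 and 312 in htl1Δ (0.59). The other catalytic subunits did not share this: PRE3 stood at 370 and 290 FPKM in WT (-0.35) and at 359 and 275 in htl1Δ (-0.38), and PRE2 had -0.25 and 0.14. PUP1 is 1 of the 3 genes with A as the first base of the motif, and the other 2, PRE5 and RPN8, had -0.01 and -0.34 in WT. The part of the first base in these values was not tested.

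RPT6 was lowest in both comparisons of media, at 268 FPKM in YPD against 348 in YPGR in WT (-0.38) and 255 against 360 in htl1Δ (-0.49). RPN2 followed with 144 against 184 (-0.35) and 164 against 201 (-0.29). After PUP1, PRE6 of the alpha ring was highest in both, with 391 against 339 FPKM (0.21) and 399 against 331 (0.27). PRE7 came next in WT at 391.9 against 374 (0.07) and PUP3 in htl1Δ at 417 against 358 (0.22). RPN4 stood at 82.9 FPKM in YPD against 117.5 in YPGR in WT (-0.50), lower than every subunit gene, and at 97.2 against 107 in htl1Δ (-0.14).

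RPN4 (YDL020C, chrIV:415113-416708) stood between 81.2 and 117.5 FPKM in the 10 libraries, on 1 scale within each experiment. The experiments were not brought to a shared scale. In experiment 1 the values were 103 in WT, 89.8 in htl1Δ, 81.2 in npl6Δ, 102 in rsc1Δ, 110.5 in rsc2Δ and 104 in rtt102Δ. In experiment 2 they were 117.5 in WT in YPGR, 104 in htl1Δ in YPGR, 82.9 in WT in YPD and 96.1 in htl1Δ in YPD. WT, rsc1Δ and rtt102Δ thus lay within a few FPKM of each other, with npl6Δ and htl1Δ below them. The genes listed for the control of RPN4 were 7: the activators of its transcription PDR1, PDR3, YAP1 and HSF1, and UBR2, MUB1 and RAD6, which mark the Rpn4 protein for degradation. Over the 7 comparisons of deletion with WT their ratios ran from -0.45 (UBR2 in rsc1Δ) to 0.42 (RAD6 in rsc2Δ). Their medians were -0.23 in htl1Δ, -0.15 in npl6Δ, 0.08 in rsc1Δ, -0.11 in rsc2Δ, -0.09 in rtt102Δ, and 0.08 and 0.10 in htl1Δ of experiment 2 in YPD and YPGR. The htl1Δ median was -0.12 with a pseudocount of 10 FPKM or with rtt102Δ as the control.

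Assembly factors and associated proteins, 16 genes, were less alike than the subunits. Their medians were -0.06, -0.17, -0.12, -0.11 and -0.07 in the deletions of experiment 1 in the order above, 0.18 and -0.05 in htl1Δ of experiment 2 in YPD and YPGR, and -0.33 and -0.12 between media. RPN13, a ubiquitin receptor, and SEM1, of the lid, are subunits outside the 32 members that were put in this list, and they had -0.25 and -0.17 in htl1Δ and 0.24 and 0.31 in rsc2Δ. UMP1, the maturation factor of the core particle, stayed between -0.14 and 0.13 in all 9 comparisons. In htl1Δ 1 of the 16 was at -1 or less, against 2.86% of all measured genes, and likewise 1 in npl6Δ (3.22%), 1 in rsc1Δ (2.11%), 1 in rsc2Δ (2.61%) and 1 in htl1Δ of experiment 2 in YPD (2.06%).

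That gene was TMA17 in all but rsc2Δ. TMA17 encodes Adc17, a stress-induced chaperone for assembly of the base. It stood at 85.7 FPKM against 199 in htl1Δ (-1.20), 73.7 against 196 in npl6Δ (-1.40) and 84.5 against 193 in rsc1Δ (-1.18). In rsc2Δ it stood at 116 against 189 (-0.70) and in rtt102Δ at 148 against 192 (-0.37). In experiment 2 it was at 77.1 against 160 FPKM in YPD (-1.05) and 443 against 489 in YPGR (-0.14). Between media it was at 165 in YPD against 463 in YPGR in WT (-1.48) and 80.4 against 434 in htl1Δ (-2.42). The TMA17 level was below that of its control library in all 9 comparisons. The authors' deposited table gave it p-values of 0.0192, 0.0095, 0.0064 and 0.0220 in the 4 deletion comparisons with a ratio of -1 or less and called none of them significant. In rsc2Δ the gene at -1 or less was HSM3, another chaperone of the base, at 11.3 FPKM against 25.3 (-1.10).

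**Figure D5:**
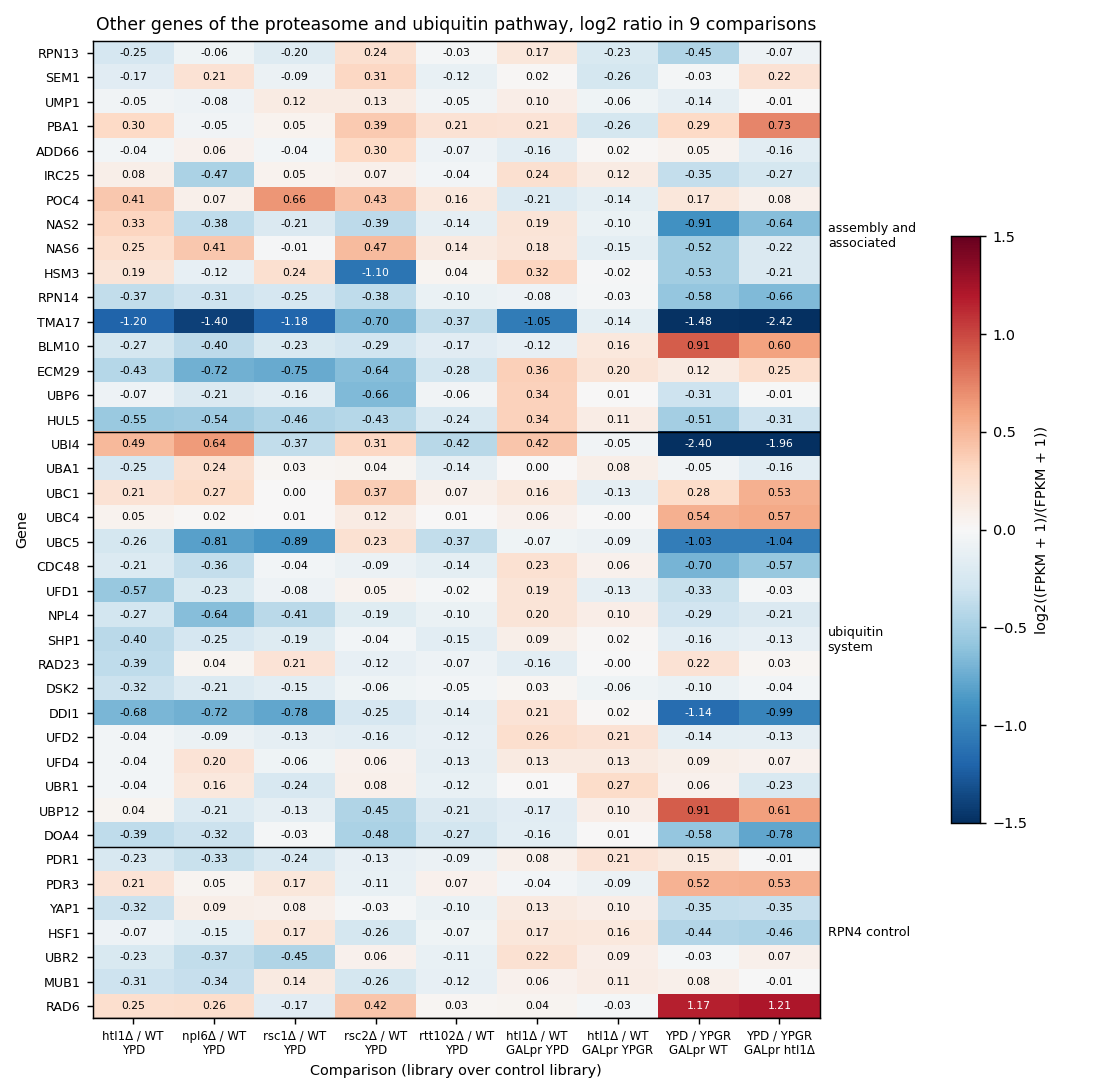
Log2 ratio (colour, which saturates at an absolute value of 1.5, and printed value) of the 40 other genes of the pathway (rows) in the 9 comparisons (columns). TMA17 is below 0 in every column, and UBI4 is low in both comparisons of YPD against YPGR.

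The ubiquitin system, 17 genes, had medians of -0.25, -0.21, -0.13, -0.04 and -0.13 in the deletions of experiment 1, 0.09 and 0.02 in htl1Δ of experiment 2 in YPD and YPGR, and -0.14 and -0.13 between media. With rtt102Δ as the control the medians were near 0, at -0.064 in htl1Δ, 0.0049 in npl6Δ, -0.009 in rsc1Δ and 0.078 in rsc2Δ. Over the comparisons of deletion with WT their ratios ran from -0.89 (UBC5 in rsc1Δ) to 0.64 (UBI4 in npl6Δ). CDC48, the segregase that extracts ubiquitinated proteins, had -0.21, -0.36, -0.04, -0.09 and -0.14 in experiment 1. Between media 3 of the 17 were at -1 or less in WT, against 12.9% of all measured genes, and 2 in htl1Δ, against 13.1%. UBI4, the polyubiquitin gene, stood at 143 FPKM in YPD against 759 in YPGR in WT (-2.40) and 194 against 760 in htl1Δ (-1.96). UBI4 shares its ubiquitin repeats with other ubiquitin genes, and UBC5, a conjugating enzyme at -1.03 and -1.04, has the near-identical copy UBC4, so both values are uncertain. DDI1, a shuttle factor, had -1.14 and -0.99, and RAD6 of the control list had 1.17 and 1.21.

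In these lists the exact motif was in 1 of the 16 assembly genes (6.25%), 3 of the 17 ubiquitin genes (17.6%) and 1 of the 7 control genes (14.3%), between the 87.1% of the subunit genes and the 1.20% of all protein-coding genes. Outside the 31 subunit genes 45 genes held it, of which 7 shared the site of a subunit gene next to them and 38 did not. Whether any of the 38 share a site with each other was not checked. HUB1 and ABZ1, named below, have neighbouring systematic names. In htl1Δ 34 of the 38 were measured, with a median of -0.25 and 25 below 0, against 50.0% of the 6044 measured genes. The 27 subunit genes with the motif had -0.23 and the 4 without it -0.18. The 7 genes that shared the site of a subunit gene had a median of -0.02, with 3 above 0 and 4 below. With the first base left free and the same 7 genes left out, the median was -0.13 over 98 measured genes, with 64 below 0. The 98 include the 34 above, and whether any share the site of PUP1, PRE5 or RPN8 was not checked. In npl6Δ the 34 measured genes of the 38 had -0.26, against -0.11 for the 27 subunit genes with the motif and -0.07 for the 4 without it. In rsc2Δ the 33 measured genes of the 38 had -0.16, against 0.06 for the 27 subunit genes with the motif and 0.22 for the 4 without it. The part of the motif in these values was not tested. Of the 38 genes, the 4 with the largest absolute median over the 7 deletion comparisons were all below 0. They were HUB1, which encodes a ubiquitin-like protein (-0.59), MEF2, a mitochondrial translation factor (-0.58), ECM29, a proteasome-associated protein (-0.43), and ABZ1, an enzyme of aminobenzoate synthesis (-0.43). MEF2 had -1.55, -1.52 and -1.74 in htl1Δ, npl6Δ and rsc1Δ, and ECM29 had -0.43, -0.72 and -0.75. In htl1Δ of experiment 2 both were above 0, MEF2 with 0.10 in YPD and 0.30 in YPGR and ECM29 with 0.36 and 0.20.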

How the data were processed

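The authors deposited 9 tables, each of 2 libraries. The submitters' processing notes name TopHat, Cufflinks and Cuffdiff and the sacCer3 build; tool versions and strand handling were not given in the sources used here; antisense reads cannot be told apart. The deposited values are FPKM, which the authors scaled within each pair of libraries. The authors' deposited p-values and q-values come from Cuffdiff and compare 2 libraries, not strains. Of 6931 rows a table, 115 naming several genes were left out.

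A gene counted as measured where its row was marked OK and either library had 5 FPKM or more. Ratios used a pseudocount of 1 FPKM, which understates low genes, and SDs are over genes. Levels across tables were scaled through shared columns. RefSeq R64 names, matching 5859 rows, and sequence were used after checking that no locus ran past a chromosome end and that all 32 loci had the same coordinates. Members and lists (subcomplexes, assembly, ubiquitin, RPN4 control, mating type) were chosen with earlier results of these data known. Named genes were, by rule, all members (the 3 highest and lowest per comparison), RPN4, fixed list genes, list genes past 1 and 4 motif genes. The ratios and the count at a limit of 1 were tested on simulated data. The planted changes were larger than any subunit value here, so smaller differences were not covered. Alternatives were pseudocounts of 0.1 and 10 FPKM, no filter or one of 20 FPKM, 3 centrings, all rows and rtt102Δ as control. Python 3.11.15, pandas 2.3.3, NumPy 2.4.6 and matplotlib 3.10.9 were used.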

Additional observations from a re-analysis of the deposited data

Results flagged for a closer look

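The htl1Δ contrast in YPD of experiment 2 had the opposite sign to that of experiment 1. The median of the 31 subunit genes was -0.22 in htl1Δ of experiment 1 and 0.10 in the library labelled htl1Δ with GALpr-HTL1 in YPD, each over its own WT. In YPGR it was -0.04, against -0.03 for genes in the members' FPKM range, and its sign changed when centred on genes of similar length. RPN4 had -0.20 in experiment 1, 0.21 with GALpr-HTL1 in YPD and -0.18 with GALpr-HTL1 in YPGR. These were picked out because the YPD contrast of experiment 2 lay above 0 and the other contrast or contrasts below; the difference was not tested. With the pseudocount of 1 FPKM, HTL1 stood at 1.05% of WT in experiment 1, 41.9% in YPD and 93.6% in YPGR. The part of HTL1 in these values was not tested.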

How the results depend on the processing

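No paired analysis was possible because each group had 1 library and no replicate; for the same reason no replicate could be left out. The median of the 31 subunit genes moved by no more than 0.1 under every alternative, except when centred on genes in the members' FPKM range in npl6Δ, -0.22 (from -0.11), and rsc2Δ, -0.0302 (from 0.10). Its sign changed there in rsc2Δ and under length centring in htl1Δ in YPGR, 0.0089 (from -0.04). Centring on the range shifts all genes by 0.11 in npl6Δ and 0.13 in rsc2Δ, and the split of genes at 0.5 or more and -0.5 or less went from 916 and 846 to 699 and 1136 in npl6Δ, from 756 and 717 to 523 and 1061 in rsc2Δ, and from 642 and 462 to 823 and 362 in htl1Δ of experiment 2 in YPD. It also put 1 subunit at -0.5 or less in npl6Δ (from 0) and 0 at 0.5 or more between media in WT (from 1). Subunits at -0.5 or less in rsc1Δ were 0 (from 1) with a pseudocount of 10 FPKM or rtt102Δ as control, and 1 (from 0) between media in htl1Δ when centred on genes of similar length, an alternative chosen after seeing the data. With rtt102Δ as control the ubiquitin medians were 0.0049 in npl6Δ and 0.078 in rsc2Δ, above 0 (from -0.21 and -0.04), and -0.0637 in htl1Δ and -0.009 in rsc1Δ (from -0.25 and -0.13); the RPN4 control median in htl1Δ was -0.1223, and -0.1248 with a pseudocount of 10 FPKM (from -0.23), and the assembly median in rsc2Δ was -0.0022 (from -0.11). Range centring gave assembly, ubiquitin and control medians of -0.275, -0.3154 and -0.2565 in npl6Δ (from -0.17, -0.21 and -0.15) and -0.2369, -0.1714 and -0.2328 in rsc2Δ (from -0.11, -0.04 and -0.11). Other reversed list medians were 0.0713 for assembly genes in rsc2Δ with a filter of 20 FPKM and 0.0347 for RPN4 control genes in rsc2Δ under length centring; the cause was not tested. The motif share went from 87.1% to 96.8% of subunit genes with the first base free. A pseudocount of 10 FPKM, which shrinks low genes, cut all genes at 1 or more from 235 to 146 in htl1Δ, 280 to 169 in npl6Δ, 123 to 67 in rsc1Δ, 226 to 134 in rsc2Δ, and 230 to 110 (YPD) and 44 to 18 (YPGR) in htl1Δ of experiment 2. In that order, with rtt102Δ after rsc2Δ, it cut those at -1 or less from 173 to 101, 195 to 103, 127 to 64, 158 to 78, 76 to 41, 125 to 78 and 58 to 34. It cut those at -0.5 or less from 463 to 300 in rsc1Δ, 717 to 420 in rsc2Δ, 244 to 147 in rtt102Δ and 189 to 114 in YPGR, and those at 0.5 or more from 642 to 415 in YPD and 126 to 78 in YPGR. A filter of 20 FPKM gave 159 (from 244) in rtt102Δ, 417 and 80 at 0.5 or more and 143 and 23 at 1 or more in YPD and YPGR. Depth and the lack of replicates limit small differences: none of those given here has a replicate error.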
